A study of Xenopus tropicalis with 36 samples.

Results

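Transcript levels of 9 genes of the DNA damage and stress response were followed in whole *X. tropicalis* embryos that had lost the *Brachyury* paralogs *t* and *t2* by knockdown (KD) or by mutation (KO). The genes are *mdm2*, *cdkn1a*, *ccng1*, *sesn1*, *gadd45a*, *btg2*, *tp53inp1*, *zmat3* and *rrm2b*. They were taken by symbol from a table of 25774 genes, 15177 of which have a symbol. Each symbol matched a single gene, and all 9 were among the 17979 genes tested, those with a mean normalized count above 7 over all libraries other than *t*/*t2* MO and *t*/*t2* KO.

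When DNA is damaged or a cell is stressed, checkpoint kinases switch on the transcription of a set of genes that stop the cell cycle, mend the damage or, if this fails, lead the cell into apoptosis. The set includes its own brakes. The ubiquitin ligase *mdm2* is the best known of these, because its product shuts down the response that induces it. Morpholino oligomers (MOs), antisense molecules that block splicing or translation of a transcript, are injected into the fertilized egg, and activation of this response is a known concern with their use in vertebrate embryos.

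Poly(A) RNA was sequenced at mid-tailbud stage 26 and at stage 34, in 36 libraries, 3 for each of 6 conditions at a stage. In the KD experiment, wild-type embryos of an outbred Nigerian strain from frogs D, E and F were left uninjected (uni), or injected at the 1-cell stage with 18 ng of the standard control MO (cMO) or with 18 ng of a mix of splice- and translation-blocking MOs against *t* and *t2* (*t*/*t2* MO). The *t*/*t2* MOs carried a sulforhodamine tag and the cMO did not. In the KO experiment, frogs heterozygous for the alleles te1.2D and t2e3.7D, which carry small deletions in *t* and *t2*, were mated in crosses 1, 2 and 9. Their offspring were sorted by genotype (wild-type, *t*/*t2* het or, with both alleles of both genes mutated, *t*/*t2* KO), and none of these were injected. Each library pooled RNA of 5 to 10 embryos of a clutch, so that a clutch (a frog or a cross) gave a library of every condition of its experiment at both stages. The embryos of the KD and the KO experiment had different parents. The control groups of both experiments were uninjected, but they differ in parentage as well as in experiment.

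Libraries held between 30225504 and 52401214 fragments aligned to genes, with a median of 37215941. The targeted transcripts were lower in *t*/*t2* morphants and in *t*/*t2* KO embryos. In *t*/*t2* KO embryos, *t2* had at most 4.03 normalized counts and *t* between 38.0 and 145, while wild-type embryos of the same crosses had 633 to 986 for *t2* and 384 to 876 for *t*. In *t*/*t2* morphants, *t2* had between 4.63 and 59.5 normalized counts, against 664 to 1480 in uninjected embryos. *t* was reduced less, with 510 to 689 counts at stage 26 and 165 to 202 at stage 34, against 882 to 1027 and then 350 to 382 in uninjected embryos. Transcript counts do not measure a block of translation. For the efficiency of these MOs, the paper refers to earlier RT-PCR and western blots. It also states that Brachyury directly regulates *t2* transcription, so the fall of *t2* need not be direct action of an MO. Control morphants had 972 to 1421 counts of *t* and then 421 to 530. *t* was higher in *t*/*t2* het embryos, with 1134 to 1216 counts at stage 26 and 588 to 704 at stage 34. Wild-type embryos had 645 to 876 and then 384 to 430. Of the cell type markers examined, all 8 muscle genes fell in *t*/*t2* morphants and in *t*/*t2* KO embryos, and none were called in control morphants. Of 4 notochord markers, *cav1* fell in *t*/*t2* morphants (0.157-fold) and in *t*/*t2* KO embryos (0.216-fold). Of 6 myeloid markers, *mmp7* (2.79-fold) and *spib* (2.17-fold) rose in *t*/*t2* morphants and none were called in *t*/*t2* KO embryos. The other 4 went both ways in *t*/*t2* morphants, with *ptprc* at 0.704-fold, *cebpa* at 0.939-fold, *mpo* at 1.27-fold and *spi1* at 1.44-fold. *spib* was 1.59-fold in *t*/*t2* KO embryos (FDR = 0.170). Of 6 blood markers, *hba1* fell in *t*/*t2* morphants (0.644-fold), where the other 5 were not called, and *tal1* rose in *t*/*t2* KO embryos (1.62-fold). No neural or epidermal marker was called in these comparisons, and no marker of any list in control morphants against uninjected embryos. Summed muscle marker levels were 4487 to 8317 CPM (counts scaled to library size) in *t*/*t2* morphants and 5290 to 6804 CPM in *t*/*t2* KO embryos, against 12204 to 15256 in uninjected and 12525 to 14375 in wild-type embryos. Summed blood marker levels in *t*/*t2* morphants were 252 to 294 CPM at stage 26, against 194 to 314 in uninjected embryos. At stage 34 they were 757 to 955 CPM, against 601 to 731 in uninjected embryos. In *t*/*t2* KO embryos they were 225 to 284 CPM at stage 26, against 181 to 243 in wild-type embryos. At stage 34 *t*/*t2* KO embryos had 517 to 721 CPM and wild-type embryos 243 to 434. All libraries were made from whole embryos, in which fewer cells of a type and less RNA per cell cannot be told apart. At stage 26, the share of reads that aligned to nothing was 28.9% to 30.2% in uninjected embryos, 29.9% to 30.8% in control morphants and 30.9% to 33.4% in *t*/*t2* morphants. At stage 34, these shares were 30.2% to 31.4%, 32.4% to 34.0% and 33.1% to 34.0%. The part of these differences in the results below was not tested.

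In the deposited annotation of assembly v7.1, the 9 genes lie on 5 of the large scaffolds. *mdm2* (Xetro.C01709) lies on scaffold 3 from 87624437 to 87637075 and *ccng1* (Xetro.C01030) on the same scaffold from 49911593 to 49920740, both on the minus strand. *cdkn1a* (Xetro.A01313) lies on scaffold 1 from 74991498 to 75016529 on the minus strand, and *btg2* (Xetro.A01249) on scaffold 1 from 71051835 to 71055694 on the plus strand. *sesn1* (Xetro.E00657) lies on scaffold 5 from 49599316 to 49611560 on the minus strand, and *zmat3* (Xetro.E00221) on scaffold 5 from 13357877 to 13375775 on the plus strand. *tp53inp1* (Xetro.F00242) and *rrm2b* (Xetro.F00232) lie on the plus strand of scaffold 6, from 19248626 to 19263472 and from 18685391 to 18694484. *gadd45a* (Xetro.D01793) lies on the minus strand of scaffold 4 from 93453808 to 93458481 and overlaps the unnamed gene Xetro.D01792 on the opposite strand. The libraries do not mark strand, so reads from this pair cannot be told apart where they overlap, and the counts of *gadd45a* carry this uncertainty.

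Levels were first compared between genes as FPKM, fragment counts scaled to the library size and to the length of the longest annotated transcript. In uninjected embryos at stage 26, *ccng1*, which encodes a cyclin of the damage response, was the most abundant with 60.5 ± 5.1 FPKM (SD, n = 3 libraries for this and the following values). The antiproliferative gene *btg2* (25.3 ± 4.3 FPKM) followed, then *mdm2* (22.0 ± 0.53) and *cdkn1a* (20.7 ± 0.028). Then came *gadd45a* (14.4 ± 0.69 FPKM), *sesn1* (12 ± 2.8), *tp53inp1* (11.2 ± 0.66) and *zmat3* (9.09 ± 0.61), and *rrm2b* was lowest with 3.92 ± 0.63. The levels of *btg2* and *mdm2* lay within the spread of *btg2*, and those of *gadd45a*, *sesn1* and *tp53inp1* within the spread of *sesn1*. The gene models of *rrm2b* and *zmat3* end at or close to the coding sequence, and the effect of this on their FPKM was not tested. All other comparisons were made within a gene, in normalized counts, that is, fragment counts scaled to a common library size.

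**Figure D1:**
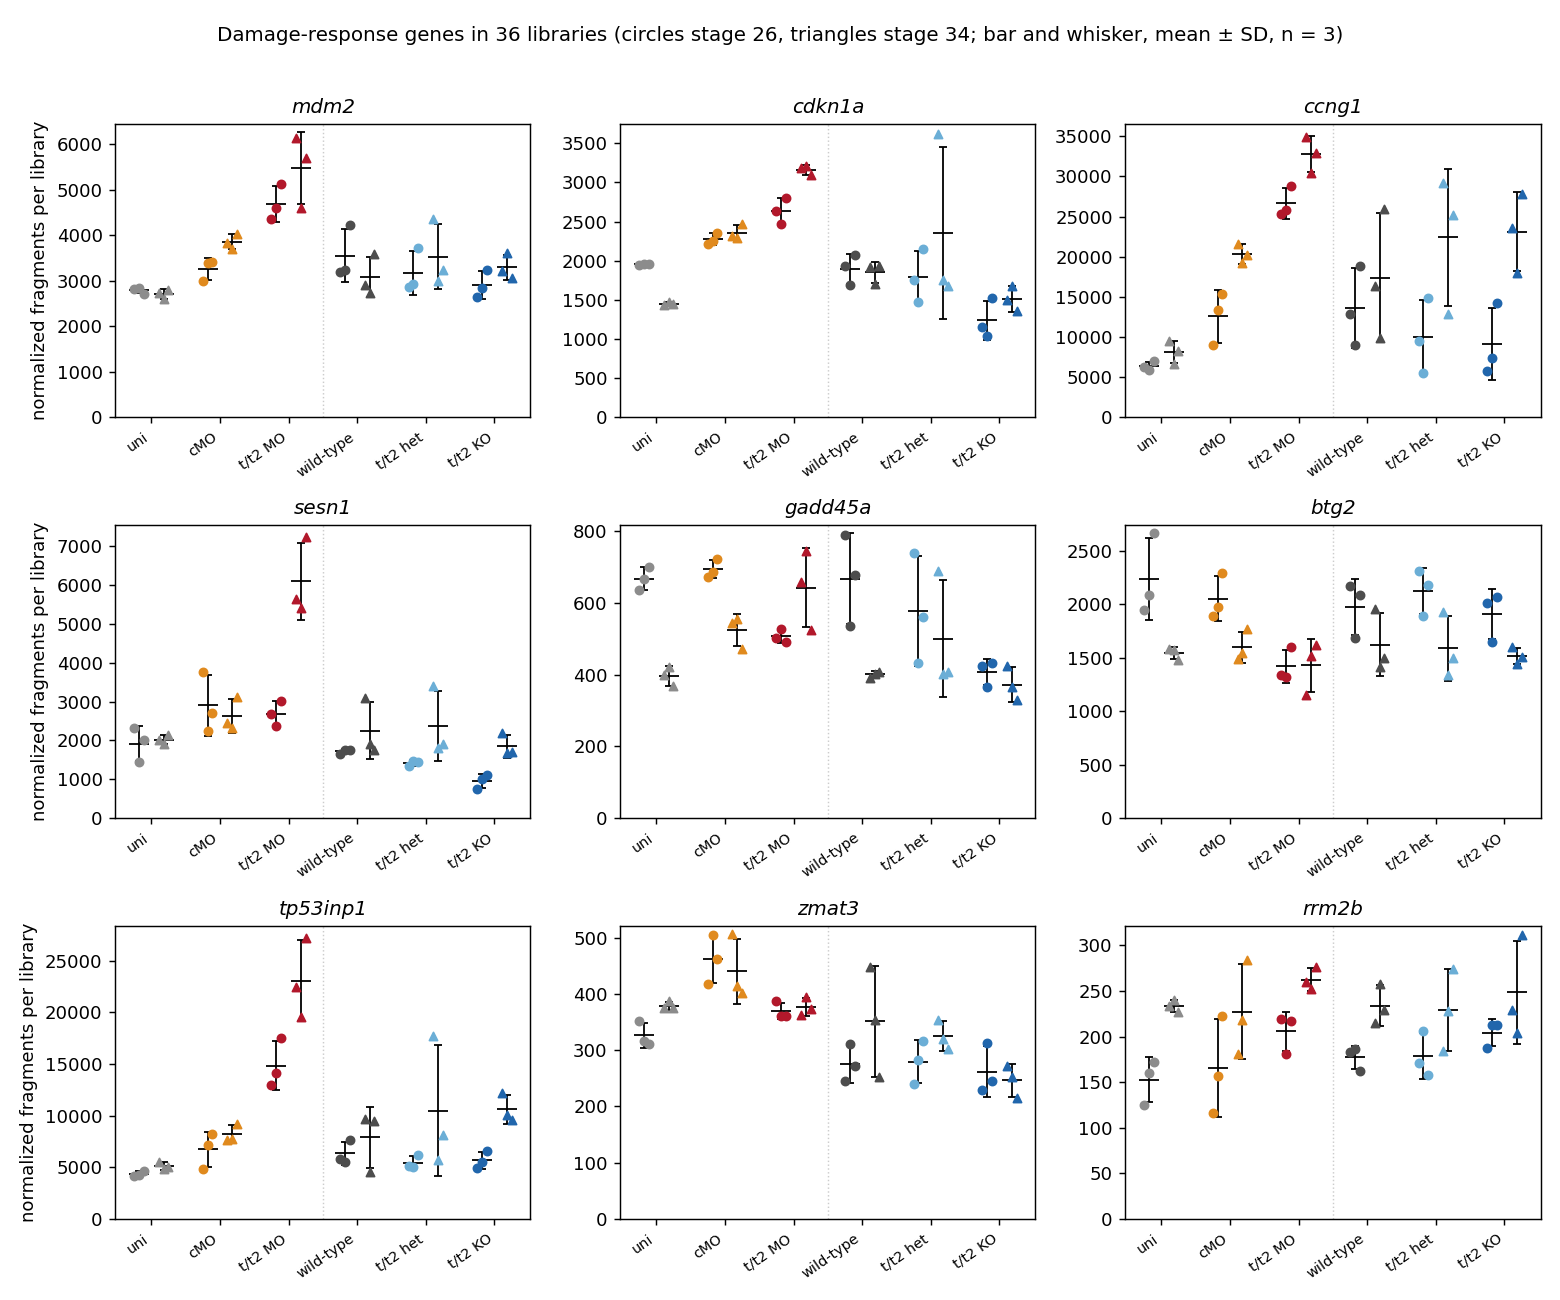
Normalized counts of the 9 genes in all 36 libraries. Each point is a library (circles for stage 26 and triangles for stage 34), grouped on the x axis by condition, with the mean and SD of 3 libraries in black. The y axis starts at 0 and differs between panels. *ccng1* and *tp53inp1* stand highest in *t*/*t2* morphants at both stages, and the stage 34 *t*/*t2* het library of cross 1 stands above the other 2 of its group for *mdm2*, *cdkn1a*, *sesn1*, *gadd45a* and *tp53inp1*. For *sesn1*, the stage 34 wild-type library of cross 1 is also high.

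The first question was whether injection of the control MO changed these genes. Compared with uninjected embryos of the same frogs over both stages, 2 of the 9 genes rose in control morphants, *ccng1* by 2.23-fold and *tp53inp1* by 1.58-fold, and none fell. A gene was called if it changed at least 1.5-fold with a false discovery rate (FDR) of at most 0.1 (edgeR's quasi-likelihood test, adjusted over all genes). By this rule 1.42% of all genes tested were called in control morphants, and 0.773% were called higher. The median log2 fold change was 0.37 over the 9 genes and -0.000705 over all genes tested. Of the 7 genes that were not called, *mdm2*, *cdkn1a* and *zmat3* passed the FDR but not the minimum change. All 6 pairs of libraries of the same clutch (3 frogs at 2 stages) had more transcript in the control morphants for *mdm2*, *cdkn1a*, *ccng1*, *sesn1*, *gadd45a*, *tp53inp1* and *zmat3*. The share of all genes with all 6 pairs in the same direction was not computed, here or for the pairs given below. At stage 26, the 3 control morphant libraries lay above the 3 uninjected ones for 5 of the 9 genes, as they did for 6.73% of all genes. At stage 34 this held for 7 of the 9 genes and for 11.7% of all genes.

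In *t*/*t2* morphants, 5 of the 9 genes rose relative to uninjected embryos, where 15.2% of all genes tested were called, 6.64% higher and 8.59% lower. These were *ccng1* (4.06-fold), *tp53inp1* (3.87-fold), *sesn1* (2.1-fold), *mdm2* (1.82-fold) and *cdkn1a* (1.69-fold), and none fell. The median log2 fold change of the 9 genes was 0.76, against -0.03 over all genes tested. When *t*/*t2* morphants were compared with control morphants instead, *ccng1* (1.82-fold, FDR = 5.49e-06) and *tp53inp1* (2.46-fold, FDR = 2.68e-08) rose, with 13.6% of all genes called, 6.1% higher and 7.54% lower. Both MO conditions are set against the same uninjected libraries, so that their values are not independent of each other. Without overlap, *t*/*t2* morphant libraries lay above uninjected ones for 14.4% of all genes at stage 26 and 21.6% at stage 34. They lay below them for 18.2% and 25.4%. Against control morphants, they lay above for 14.7% and 22.9% and below for 17.6% and 25%. Groups of single genes that do not overlap, given below, stand beside these shares.

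**Figure D2:**
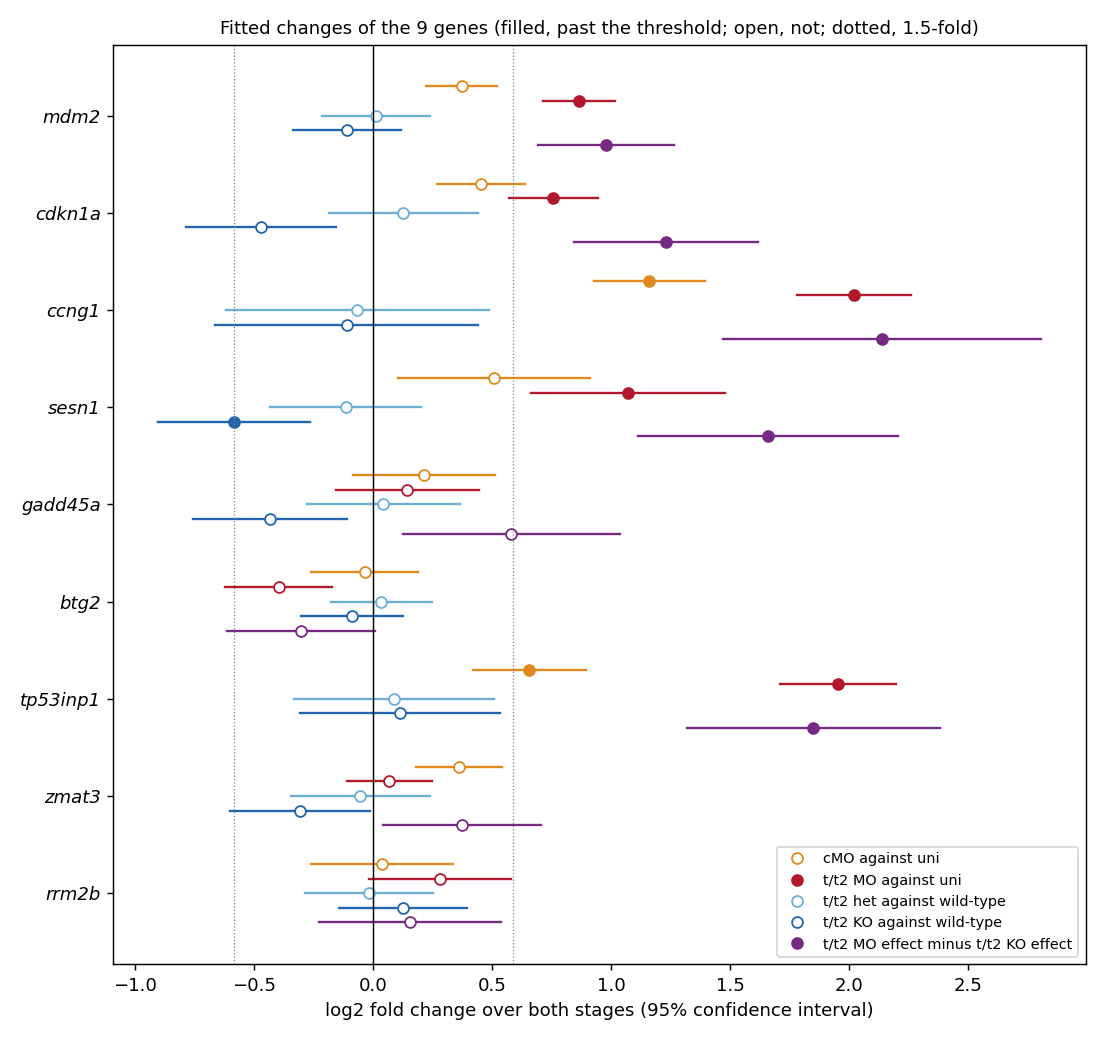
Fitted log2 fold changes over both stages (x axis) of the 9 genes (y axis) in 5 comparisons, with 95% confidence intervals. Filled circles passed the threshold, open ones did not, and dotted lines mark a 1.5-fold change. With *t*/*t2* MO, 5 genes lie to the right of the dotted line, and in *t*/*t2* KO embryos only *sesn1* reaches the line on the left.

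The brake of the response, *mdm2*, had 2819, 2832 and 2711 normalized counts in uninjected embryos of frogs D, E and F at stage 26 and 2737, 2592 and 2791 at stage 34. Control morphants had 2983, 3382 and 3403 counts at stage 26 and 3839, 3702 and 4036 at stage 34, and *t*/*t2* morphants had 4353, 4593 and 5114 and then 6124, 4589 and 5691. The 3 groups were ordered uninjected, control and *t*/*t2* morphant without overlap at both stages. The rise with *t*/*t2* MO was 1.82-fold (95% confidence interval 1.64 to 2.02, FDR = 9.25e-09). With cMO, the change was 1.29-fold (1.17 to 1.43, FDR = 0.00548), below the minimum. A direct comparison of both morphants gave 1.41-fold with FDR = 2.33e-05, which is also below it.

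*cdkn1a* encodes p21, which binds and inhibits the cyclin-dependent kinases that drive cells from G1 into S phase. Uninjected libraries differed little, with 1950, 1952 and 1955 normalized counts at stage 26 and 1439, 1469 and 1444 at stage 34. Control morphants had 2220, 2255 and 2356 counts and then 2311, 2284 and 2467. In *t*/*t2* morphants, 2636, 2472 and 2801 counts were found at stage 26 and 3181, 3206 and 3091 at stage 34. No library of a group overlapped with another group of the same stage. Over both stages, *cdkn1a* rose 1.69-fold with *t*/*t2* MO (1.48 to 1.92, FDR = 1.45e-06), and it changed 1.37-fold with cMO (1.2 to 1.56, FDR = 0.00637), below the minimum.

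*ccng1* encodes cyclin G1, which binds a protein phosphatase subunit and acts in feedback on the damage response. It had 6234, 5941 and 6986 normalized counts in uninjected embryos at stage 26, 9011, 13323 and 15414 in control morphants, and 25296, 25842 and 28802 in *t*/*t2* morphants. At stage 34 these were 9475, 6695 and 8221 counts in uninjected embryos, 21570, 19197 and 20263 in control morphants, and 34963, 30452 and 32898 in *t*/*t2* morphants. The lowest *t*/*t2* morphant library stood above the highest control morphant library at each stage. The stage 26 library of frog D was the lowest of the control morphants. *ccng1* rose 4.06-fold with *t*/*t2* MO (3.44 to 4.79, FDR = 2.72e-11) and 2.23-fold with cMO (1.90 to 2.63, FDR = 1.77e-06). In single clutches the ratio to uninjected embryos ranged from 3.69 to 4.55 with *t*/*t2* MO and from 1.45 to 2.87 with cMO.

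*tp53inp1* encodes a stress-induced nuclear protein with roles in autophagy and cell death. It had 4173, 4277 and 4662 normalized counts in uninjected embryos at stage 26, 4885, 7166 and 8220 in control morphants, and 12950, 14111 and 17482 in *t*/*t2* morphants. At stage 34, uninjected embryos had 5539, 4833 and 4991 counts, control morphants 7626, 7733 and 9207, and *t*/*t2* morphants 22448, 19527 and 27226. The groups did not overlap at either stage, and the gap between control and *t*/*t2* morphants was wider than that between uninjected embryos and control morphants. The rise was 3.87-fold with *t*/*t2* MO (3.27 to 4.58, FDR = 6.04e-11) and 1.58-fold with cMO (1.34 to 1.86, FDR = 0.00196). The latter is close to the minimum change, and without frog F it fell to a log2 fold change of 0.53 (FDR = 0.0164), which is no longer called.

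*sesn1* encodes a sestrin, a family that guards against oxidative stress and restrains mTORC1 signalling. Uninjected embryos of frogs D, E and F had 2316, 1441 and 2006 normalized counts at stage 26, and 2008, 1916 and 2135 at stage 34. Control morphants had 3770, 2243 and 2695 counts and then 2455, 2313 and 3120. The *t*/*t2* morphants had 2671, 2372 and 3021 at stage 26, within the range of the control morphants, but 5629, 5413 and 7225 at stage 34, above every other library of the table. Over both stages *sesn1* rose 2.1-fold with *t*/*t2* MO (1.58 to 2.79, FDR = 0.000285). With cMO, *sesn1* was 1.42-fold higher (1.08 to 1.88) and missed the threshold (FDR = 0.245), although all 6 pairs of libraries had the same direction.

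The other 4 genes were not called over both stages in either comparison. *gadd45a*, a small protein that binds to cell cycle kinases and repair factors, had a log2 fold change of 0.14 (SE 0.145) with *t*/*t2* MO and of 0.21 (SE 0.143) with cMO. *btg2* had a log2 fold change of -0.40 (SE 0.11, FDR = 0.00845) with *t*/*t2* MO, which is less than the minimum, and lower counts than both other groups in all 3 stage 26 libraries (1339, 1324 and 1601, against 1943, 2089 and 2668 in uninjected embryos). *zmat3*, a zinc finger protein that binds RNA, had 352, 317 and 312 normalized counts in uninjected embryos at stage 26, 418, 504 and 462 in control morphants and 387, 362 and 361 in *t*/*t2* morphants. Its control morphant libraries were thus above both other groups, with log2 fold changes of 0.36 (SE 0.086, FDR = 0.0301) for cMO and 0.07 (SE 0.086, FDR = 0.608) for *t*/*t2* MO. *rrm2b*, a subunit of ribonucleotide reductase that supplies nucleotides for DNA repair, ranged from 116 to 283 counts in the KD experiment. It was higher in *t*/*t2* morphants than in uninjected embryos in 6 of 6 pairs, with a log2 fold change of 0.28 (SE 0.14, FDR = 0.166).

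The second question was whether the effect of the MOs differed between the stages. With *t*/*t2* MO, 4 of the 9 genes were called at stage 26, when 11.2% of all genes were called, 4.27% higher and 6.89% lower. *mdm2* (1.68-fold), *ccng1* (4.17-fold) and *tp53inp1* (3.39-fold) rose, and *btg2* fell to 0.635-fold (0.524 to 0.770, FDR = 0.0019). Without frog F, the value of *btg2* was just under the minimum change (log2 fold change -0.58, FDR = 0.0067). At stage 34, 6 of the 9 genes rose and none fell, with 19.7% of all genes called, 9.11% higher and 10.6% lower. These were *mdm2* (1.98-fold), *cdkn1a* (2.13-fold), *ccng1* (3.94-fold), *sesn1* (2.95-fold), *gadd45a* (1.59-fold) and *tp53inp1* (4.41-fold).

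The difference itself, the interaction of stage and condition, was called for 3 of the 9 genes and for 5.6% of all genes (3.3% with a higher and 2.3% with a lower value at stage 34). The log2 fold change of *cdkn1a* was 0.43 at stage 26 and 1.09 at stage 34, a difference of 0.66 (SE 0.098, FDR = 0.00136). That of *sesn1* was 0.48 and 1.56, a difference of 1.08 (SE 0.25, FDR = 0.0222). *gadd45a* had a log2 fold change of -0.40 at stage 26 (FDR = 0.0324, below the minimum change) and of 0.67 at stage 34 (FDR = 0.000338), a difference of 1.06 (SE 0.17, FDR = 0.00236). Embryos with *t*/*t2* MO had both the injection and the loss of *Brachyury*, and the part of each in these differences was not tested. In *t*/*t2* KO against wild-type embryos, the differences of these 3 genes were 0.31, 0.56 and 0.59, and none were called. There the difference was positive for 6 of the 9 genes and negative for 3.

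For *gadd45a*, the 3 *t*/*t2* morphant libraries of stage 26 (503, 528 and 491 normalized counts) lay below the uninjected ones (636, 667 and 700), and those of stage 34 (657, 745 and 525) lay above them (398, 422 and 367). The direction of the difference from uninjected embryos was thus opposite at the 2 stages in every clutch. The difference in *sesn1* was no longer called without frog F (1.04, FDR = 0.125). For *ccng1*, the difference between the stages was -0.08 (95% confidence interval -0.50 to 0.34), and for *tp53inp1* 0.38 (-0.07 to 0.82). *btg2* had a difference of 0.51 (0.12 to 0.90, FDR = 0.139), which was called without frog D (0.73, FDR = 0.037).

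With cMO, *ccng1* (1.97-fold) and *tp53inp1* (1.55-fold) rose at stage 26, where 0.701% of all genes were called, 0.295% higher and 0.406% lower. At stage 34, *cdkn1a* (1.63-fold, FDR = 8.54e-06) joined *ccng1* (2.52-fold) and *tp53inp1* (1.61-fold), with 1.02% of all genes called, 0.701% higher and 0.323% lower. The call of *tp53inp1* was lost at both stages without frog E (FDR = 0.783 and 0.284) and without frog F (FDR = 0.229 and 0.107). In no case was the difference between the stages called, for the 9 genes or any other gene (0%), by edgeR's test. DESeq2 called 0 of the 9 genes and 9 genes in all. The unadjusted p of edgeR's test was under 0.05 for 3 of the 9, *mdm2* (0.30), *cdkn1a* (0.48) and *gadd45a* (0.36 as difference of log2 fold changes), and for 525 of 17979 genes in all. For *cdkn1a* this p was 8.18e-05 (FDR = 0.413). Over the alternatives its difference was 0.45 to 0.50, below the minimum change, with an FDR as low as 0.000712. *sesn1* was 1.51-fold higher at stage 26 (FDR = 0.219), and with the clutch as a replicate block the value was called (log2 fold change 0.60, FDR = 0.0205).

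**Figure D3:**
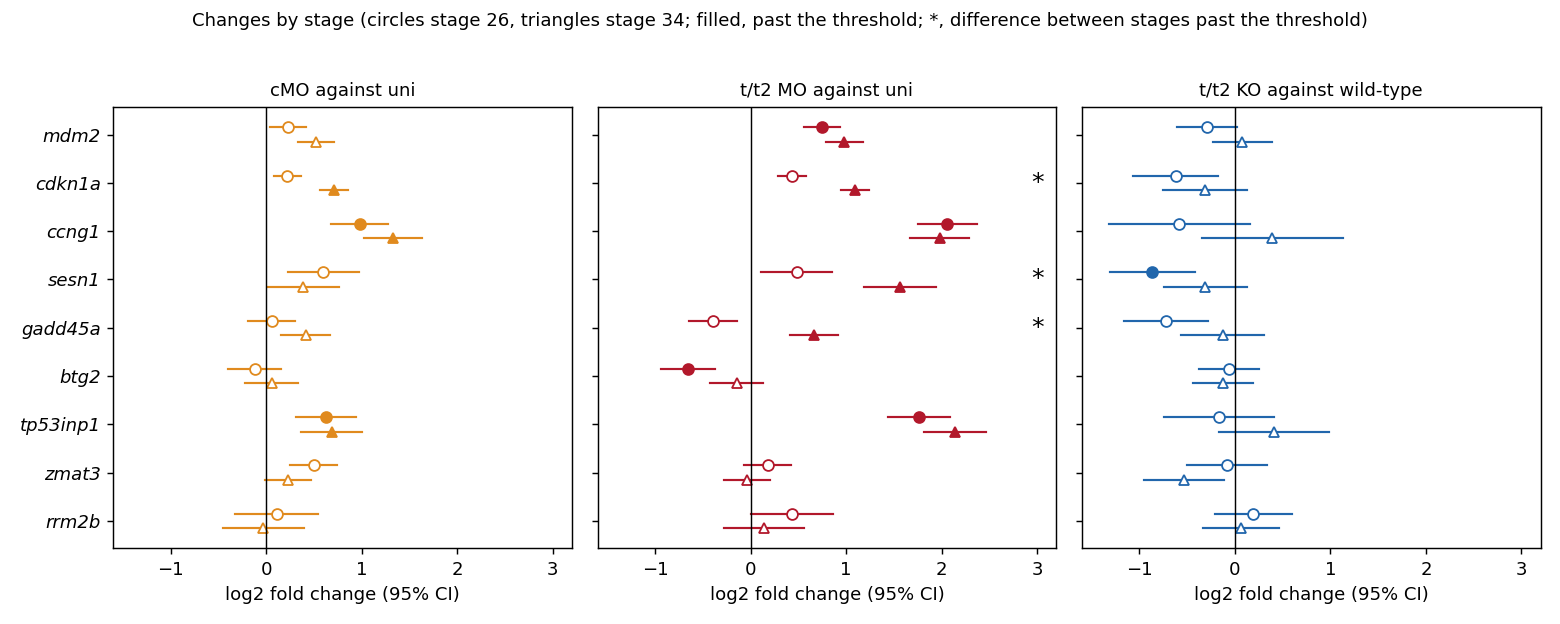
Log2 fold changes by stage with 95% confidence intervals (x axis) for the 9 genes (y axis), with circles for stage 26 and triangles for stage 34. Filled symbols passed the threshold, and an asterisk marks a difference between the stages past the threshold. In the middle panel, *cdkn1a*, *sesn1* and *gadd45a* lie further to the right at stage 34, and *ccng1* and *tp53inp1* lie far to the right at both stages.

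The third question was whether loss of *Brachyury* by mutation changed the same genes. In *t*/*t2* KO embryos, 1 of the 9 genes was called against wild-type embryos, *sesn1*, which fell, and none rose. This compares with 3.44% of all genes called, 0.467% higher and 2.97% lower. The median log2 fold change was -0.11 over the 9 genes and 0.00429 over all genes tested. *sesn1* had 1657, 1751 and 1753 normalized counts in wild-type embryos of crosses 1, 2 and 9 at stage 26 and 756, 997 and 1100 in *t*/*t2* KO embryos. At stage 34, it had 3095, 1916 and 1746 counts in wild-type and 2187, 1665 and 1697 in *t*/*t2* KO embryos. The groups were apart at stage 26 and overlapped at stage 34. Over both stages the level was 0.666-fold (0.534 to 0.832, FDR = 0.0314), a value that only just meets the minimum change. It was not called with the cross as a replicate block (log2 fold change -0.57, FDR = 0.0119), with DESeq2 (-0.58, FDR = 0.0206), without cross 1 (-0.44, FDR = 0.0402) or without the stage 34 *t*/*t2* het library of cross 1 (-0.58, FDR = 0.0104). At stage 26 alone, the fall to 0.550-fold (0.404 to 0.747, FDR = 0.032) was also called with the block and with DESeq2. *sesn1* lies on scaffold 5, and the paper places *t* and *t2* on chromosome 5. The embryos were sorted by their genotype at *t* and *t2*. A linked parental allele of *sesn1* and the loss of *Brachyury* thus cannot be told apart in this fall.

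*cdkn1a* was lower in the *t*/*t2* KO library of every pair from a cross (6 of 6), with 1928, 1690 and 2067 normalized counts in wild-type and 1157, 1041 and 1519 in *t*/*t2* KO embryos at stage 26, and 1920, 1700 and 1934 against 1500, 1677 and 1354 at stage 34. The groups did not overlap at either stage. Of all genes, 8.68% at stage 26 and 7.53% at stage 34 lay below wild-type in this way. Over both stages the level of *cdkn1a* was 0.721-fold (0.580 to 0.896) and missed the threshold (FDR = 0.111). *gadd45a* had 788, 535 and 678 counts in wild-type and 424, 365 and 431 in *t*/*t2* KO embryos at stage 26, without overlap, and overlapping levels at stage 34 (391, 403 and 408 against 423, 366 and 328).

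Thus *cdkn1a*, *sesn1* and *gadd45a* were the 3 genes whose stage 26 libraries lay below wild-type without overlap, as did 8.68% of all genes. At this stage, where 2.51% of all genes were called, 0.117% higher and 2.39% lower, only *sesn1* was called. With the cross as a replicate block, *cdkn1a* (log2 fold change -0.62, FDR = 0.0728) and *gadd45a* (-0.71 on the same scale, FDR = 0.00778) were called as well, with 3.13% of all genes called lower. The same 3 genes were called when the stage 34 *t*/*t2* het library of cross 1 was left out (2.43% of all genes called lower). No member was called at stage 34, where 2.98% of all genes were called, 0.612% higher and 2.37% lower. The unadjusted p of edgeR's test was there under 0.05 for *zmat3* alone of the 9 genes (0.691-fold), and for 2270 of 17975 genes in all. DESeq2 called 0 of the 9 genes. The interaction of stage and genotype was called for 0 of the 9 genes and 0.0278% of all genes (0.0223% higher and 0.00556% lower). None of the 9 had an unadjusted p under 0.05 for it, against 683 of 17975 genes in all, and DESeq2 called none of them.

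*ccng1*, which had the largest of the 9 fold changes with *t*/*t2* MO over both stages, differed widely between crosses. It had 12912, 8984 and 18898 normalized counts in wild-type embryos of crosses 1, 2 and 9 at stage 26 and 5789, 7420 and 14193 in *t*/*t2* KO embryos. At stage 34, wild-type embryos had 16357, 9899 and 25897 counts and *t*/*t2* KO embryos 23536, 17962 and 27788. *t*/*t2* KO embryos were lower in every cross at stage 26 and higher in every cross at stage 34, but neither change was called. The fold change was 0.668 (95% confidence interval 0.400 to 1.12) at stage 26, and the later stage had 1.31 (0.788 to 2.19). The level of *ccng1* in wild-type embryos, 13598 ± 4992 normalized counts (SD, n = 3) at stage 26, was above the 6387 ± 539 of uninjected embryos in the KD experiment. Parentage and experiment cannot be told apart in this difference, which was therefore not tested.

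*tp53inp1* had 5831, 5546 and 7652 normalized counts in wild-type and 4934, 5555 and 6541 in *t*/*t2* KO embryos at stage 26, and 9657, 4514 and 9486 against 12210, 10080 and 9540 at stage 34. Groups overlapped at stage 26. At stage 34 they also overlapped, with the wild-type library of cross 2 lowest and a fold change of 1.33 (0.892 to 1.98) that was not called. *mdm2* ranged from 2739 to 4216 counts in wild-type and from 2646 to 3599 in *t*/*t2* KO embryos and had a log2 fold change of -0.11 (SE 0.11). *btg2* (-0.09, SE 0.10), *zmat3* (-0.31, SE 0.14) and *rrm2b* (0.13, SE 0.13) were not called either. The *t*/*t2* KO libraries of *rrm2b* lay above wild-type without overlap at stage 26 (187, 213 and 213 against 183, 186 and 163), 1 of 9 genes against 6.83% of all genes.

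*t*/*t2* het embryos had none of the 9 genes called against wild-type embryos, where 0.0223% of all genes were called, 0.0167% higher and 0.00556% lower. None of the 9 had an unadjusted p under 0.05, against 303 of 17975 genes in all, and DESeq2 called none. At stage 26, the het libraries of *sesn1* (1331, 1466 and 1446 normalized counts) lay below the wild-type ones, 1 of 9 genes against 2.12% of all genes. A single library stood apart. The stage 34 *t*/*t2* het library of cross 1 had 3615 normalized counts of *cdkn1a*, compared with 1758 and 1676 in crosses 2 and 9, and 17654 of *tp53inp1*, compared with 5661 and 8114. Likewise it had 3399 counts of *sesn1* (1802 and 1899 in the others), 4356 of *mdm2* (3003 and 3236) and 689 of *gadd45a* (403 and 408). The wild-type library of cross 1 at this stage had 1920 counts of *cdkn1a*, 9657 of *tp53inp1*, 2910 of *mdm2* and 391 of *gadd45a*. Its 3095 counts of *sesn1* were close to those of the het library, so *sesn1* was high in both. For *ccng1* the het library had 29171 counts (12834 and 25197 in the others), against 16357 in that wild-type library. *btg2* (1930 counts), *zmat3* (354) and *rrm2b* (185) were not above the wild-type library of the same cross (1957, 448 and 215). The values of *btg2* and *zmat3* were still the highest of their het group. This het library held 37615922 fragments, with 29.6% of reads unaligned against 29.9% and 30.3% in crosses 2 and 9.

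**Figure D4:**
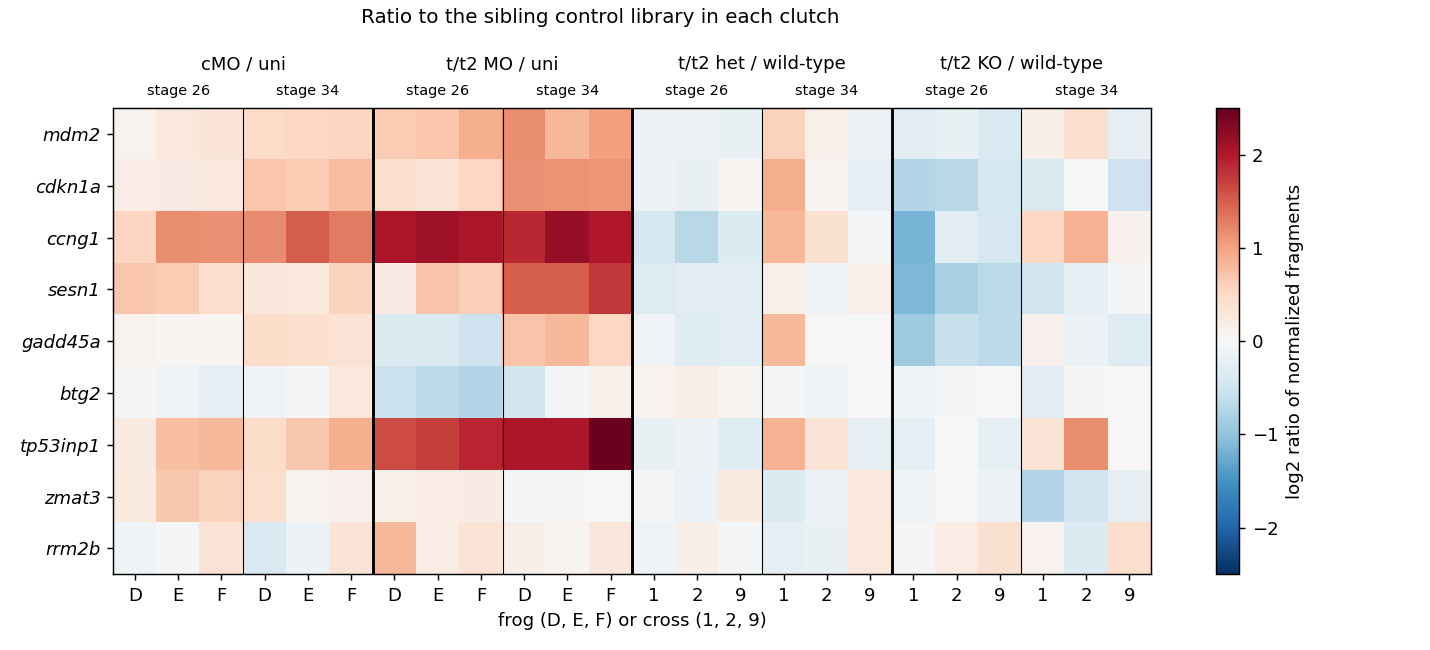
Log2 ratio of normalized counts to the control library of the same clutch and stage (colour scale, red higher and blue lower) for the 9 genes in rows. Columns are clutches, grouped by comparison and stage. The ratios of *ccng1* and *tp53inp1* are highest with *t*/*t2* MO in every clutch, and in *t*/*t2* het embryos of cross 1 at stage 34 those of *mdm2*, *cdkn1a*, *ccng1*, *gadd45a* and *tp53inp1* are raised.

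The effects of knockdown and mutation were then compared directly, as the change with *t*/*t2* MO against uninjected embryos minus the change in *t*/*t2* KO against wild-type embryos. The difference was called for 5 of the 9 genes, all with the higher value in morphants, and for 8.97% of all genes (4.36% with the higher and 4.62% with the lower value in morphants). It was largest for *ccng1*, with a log2 difference of 2.14 (SE 0.33, FDR = 1.98e-05), followed by *tp53inp1* (1.85, SE 0.26, FDR = 4.61e-06) and *sesn1* (1.66, SE 0.27, FDR = 4.64e-05). *cdkn1a* had 1.23 (SE 0.19, FDR = 2.00e-05) and *mdm2* 0.98 (SE 0.14, FDR = 5.77e-06). For *gadd45a* the difference was 0.58 (SE 0.225, FDR = 0.108), just short of both thresholds. It was not called for *btg2* (-0.30, SE 0.15), *zmat3* (0.37, SE 0.16) and *rrm2b* (0.15, SE 0.19). The 95% confidence interval of the last gene was -0.23 to 0.54, within a 1.5-fold difference in either direction.

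Without injection or mutation, 2 of the 9 genes were called between the stages in the KD experiment and 1 in the KO experiment. In uninjected embryos, *gadd45a* fell to 0.601-fold (0.504 to 0.716, FDR = 5.99e-05) from stage 26 to stage 34 and *rrm2b* rose 1.55-fold (1.15 to 2.08, FDR = 0.0196), while 31.9% of all genes were called, 19.9% higher and 12% lower. The call of *rrm2b* was lost without frog D (log2 fold change 0.49, FDR = 0.0984) or frog E (0.65, FDR = 0.111). In wild-type embryos *gadd45a* alone was called, at 0.60-fold (0.443 to 0.811, FDR = 0.02), with 17.4% of all genes called, 12% higher and 5.47% lower. Its value without cross 1 (log2 fold change -0.58, FDR = 0.0881) missed the minimum change. *cdkn1a* was lower at stage 34 in uninjected embryos (0.752-fold, FDR = 8.1e-05, below the minimum change), and nearly level in wild-type embryos (0.975-fold, 0.718 to 1.32). In uninjected embryos, *btg2* (log2 fold change -0.52, FDR = 0.00388) and *ccng1* (0.36, FDR = 0.0524) also passed the FDR but not the minimum change. The fall of *btg2* was called without frog D (-0.64, FDR = 0.000955). *rrm2b* was 1.32-fold higher (0.996 to 1.74) in wild-type embryos and not called.

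The same comparisons were made for lists of further genes of the pathway. Of 23 other known targets of the damage response, 17 were found and all of these were past the count filter. In *t*/*t2* morphants, 6 of the 17 rose and 1 fell, where 6.64% of all genes were called higher and 8.59% lower. The median log2 fold change was 0.16 over the list and -0.03 over all genes. The largest rise was that of *eda2r*, a member of the tumour necrosis factor receptor family, with a log2 fold change of 3.85 (SE 0.18, FDR = 1.28e-12). *polk*, a DNA polymerase that copies past lesions, rose by 1.69 (SE 0.085), the kinase *plk2* by 1.6 (SE 0.12) and the death receptor *fas* by 1.4 (SE 0.11).

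The other called targets were chosen after their values were seen, and comprise *aen* (0.95) and *ddit4* (0.91), which rose, and the damage sensor *ddb2* (-0.73), which fell. In control morphants 3 of the 17 rose and none fell, where 0.773% of all genes were called higher, and these were *eda2r* (2.5), *polk* (1.03) and *plk2* (0.79). None of the 17 were called in *t*/*t2* KO embryos, where 3.44% of all genes were called. *eda2r* had 174 ± 34.5 normalized counts in uninjected embryos at stage 26 (SD, n = 3), 822 ± 209 in control morphants and 2411 ± 353 in *t*/*t2* morphants. In wild-type embryos of stage 26 it ranged from 420 to 1182 counts between crosses.

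In the following lists, the counts with *t*/*t2* MO stand against 15.2% of all genes called, and single calls in lists of this size are near or below that share. Of 6 kinases that signal damage, none were called in control morphants or *t*/*t2* KO embryos, and 1 fell with *t*/*t2* MO, the checkpoint kinase *chek2* (log2 fold change -0.89, SE 0.10, FDR = 1.04e-06). Of 6 genes that regulate the stability of the response, 1 rose with *t*/*t2* MO, the cyclin G1 relative *ccng2* (0.67, SE 0.22, FDR = 0.0297). It was also the only one called with *t*/*t2* MO among 11 genes of the same families as the 9. Neither list had a gene called in control morphants or *t*/*t2* KO embryos.

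Genes that drive the cell cycle gave 2 calls among 30 with *t*/*t2* MO, a smaller share than the 15.2% of all genes, and none with cMO or in *t*/*t2* KO embryos (1.42% and 3.44% of all genes). The spindle checkpoint kinase *bub1* fell (log2 fold change -1.30, SE 0.063, FDR = 2.11e-12), and the replication helicase subunit *mcm3* rose (0.95, SE 0.34, FDR = 0.0414). The median log2 fold change of the list was -0.11 with *t*/*t2* MO, -0.07 with cMO and -0.01 in *t*/*t2* KO embryos, with -0.03, -0.000705 and 0.00429 over all genes.

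**Figure D5:**
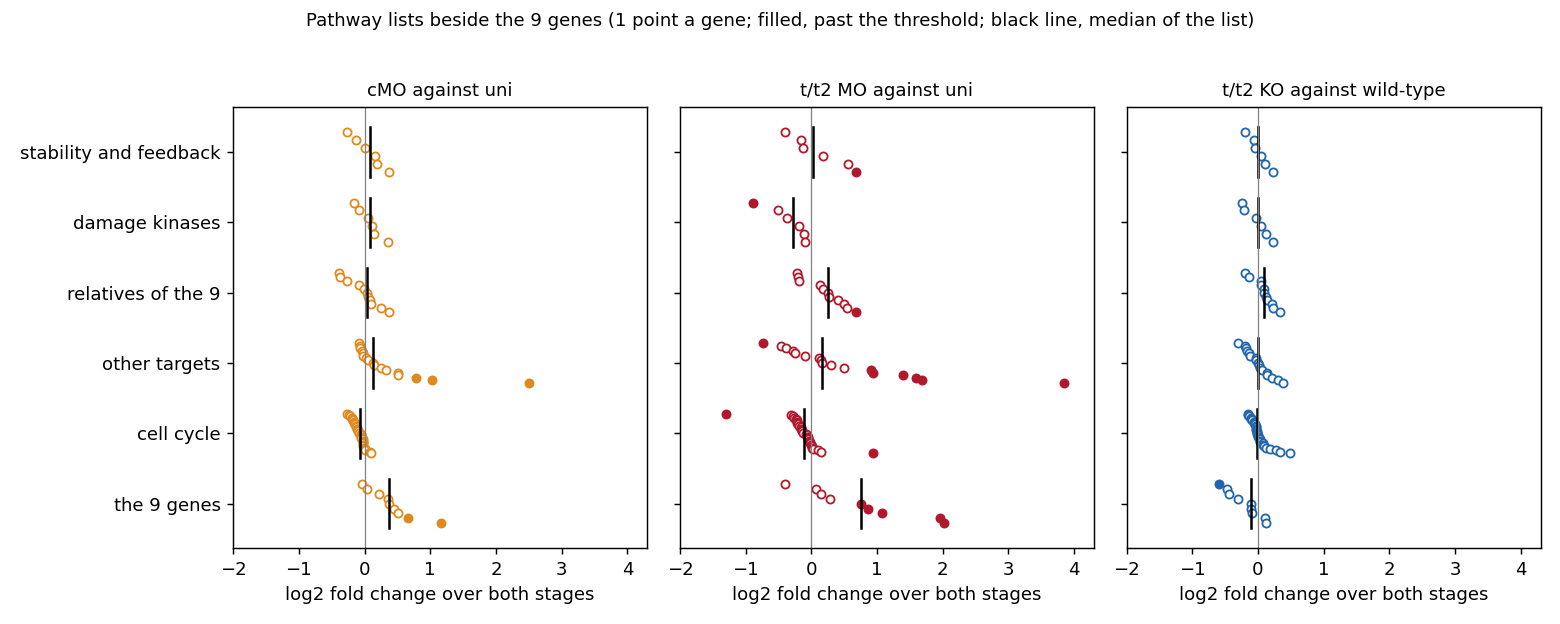
Log2 fold changes over both stages (x axis) of the genes of 5 pathway lists and of the 9 genes (rows), in 3 comparisons. Each point is a gene, filled if past the threshold, and black lines mark the median of a list. The point furthest right is *eda2r*, with 2.5 in control and 3.85 in *t*/*t2* morphants, and 0 genes of the 5 lists are filled for *t*/*t2* KO against wild-type.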

How the data were processed

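Poly(A) RNA of pooled whole embryos was sequenced in 36 libraries. The authors aligned read pairs with Bowtie2 2.1.0 to revised gene models v7.2 and deposited raw fragment counts, in which a pair counts if it aligned to a single gene. The submitters' processing notes also name CASAVA 1.8.2, TopHat2 2.0.10 and DESeq2. Besides 25774 genes, the table has 3 entries that name no gene, unaligned (27.3% to 34.0% of a library), ribosomal (0.0705% to 0.462%) and mitochondrial (0.00592% to 0.0582%). These were kept out of library sizes and tests. Deposited gene models of v7.1 gave positions and transcript lengths, and the deposited gene ontology terms gave annotation.

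Counts were fitted in R 4.3.3 with edgeR 4.0.16 (TMM normalization, quasi-likelihood test), with all conditions and both stages of an experiment in a model. Both experiments shared a model where effects were subtracted from each other. FDR values are p-values adjusted by Benjamini-Hochberg over every gene fitted, before the filter on mean count. The KD model had 25209 fitted genes, the KO model 24952 and the shared model 25774. Genes were called at an FDR of at most 0.1 and a change of at least 1.5-fold, if their mean normalized count was above 7. The standard error (SE) was the log2 fold change divided by the root of the F statistic, and intervals are 95% confidence intervals. Normalized counts are counts divided by the effective library size and multiplied by the geometric mean size. Replicates were separate clutches of 3 frogs or 3 crosses, and libraries of the same clutch varied together (mean correlation of deviations 0.320 in both experiments, against -0.159 and -0.160 for other pairs). Deviations were taken from the mean of each group of 3 libraries. The values of other pairs thus follow from those of the same clutch and are no separate reference. The clutch as a replicate block was an alternative, as were DESeq2 1.42.0, other size factors, filters and thresholds, fits of only the conditions compared, and leaving out each clutch. A fit without the stage 34 *t*/*t2* het library of cross 1 was added after seeing the data. The fit of the KD experiment was tested on simulated counts, for cMO and *t*/*t2* MO against uninjected embryos over both stages. The other fits were not tested in this way.

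The 9 genes, the pathway lists and the markers were chosen with earlier results of these data known. All 9 genes are named. From each list, at most 4 called genes are named, those with the largest change with *t*/*t2* MO first. *aen*, *ddit4* and *ddb2* are named outside this rule, after their values were seen.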

Additional observations from a re-analysis of the deposited data

Results flagged for a closer look

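The change with *t*/*t2* MO differed between the stages for 3 of the 9 genes, by a test of the difference itself. This difference was called for 5.6% of all genes tested, 3.3% with a higher and 2.3% with a lower value at stage 34. The log2 fold change against uninjected embryos was higher at stage 34 by 0.66 for *cdkn1a*. It was higher by 1.08 for *sesn1*, which did not pass without frog F. For *gadd45a*, which overlaps a gene on the other strand, it was higher by 1.06, and the libraries of all 3 frogs lay below uninjected embryos at stage 26 and above them at stage 34. The part of the injection and of the loss of *Brachyury* in these differences was not tested.

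The change with *t*/*t2* MO differed from that in *t*/*t2* KO embryos for 5 of the 9 genes. It differed for 8.97% of all genes tested, 4.36% with the higher and 4.62% with the lower value in morphants. Among the 9 genes, the log2 difference was 0.98 for *mdm2*, 1.23 for *cdkn1a* and 2.14 for *ccng1*. It was 1.66 for *sesn1* and 1.85 for *tp53inp1*. These 5 differences were called under every alternative that was run. Injection, parentage and experiment cannot be told apart in them. For *sesn1*, a parental allele linked to *t* and *t2* cannot be told apart either.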

How the results depend on the processing

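Of 1773 values of the 9 genes under alternatives, 1716 kept their call, 23 lost it, 34 gained it, and no called value changed sign. The count for *t*/*t2* KO against wild-type over both stages went from 1 to 0 with an FDR of at most 0.01 (469 of 17975 genes in all). It was also 0 with DESeq2 (632 genes in all), relative log expression size factors (616), only the conditions compared (616) and the clutch as a replicate block (736). It was 0 to 1 when a cross or the stage 34 *t*/*t2* het library of cross 1 was left out. Without cross 1 it was 0 (517 genes in all), and without that library also 0 (621). At stage 26 it was 0 with an FDR of at most 0.01 (333 genes in all) and 2 with DESeq2 (*gadd45a* added, 493 genes in all). It was 3 with only the conditions compared (460 genes in all) and 3 with the replicate block (635). Leaving out a library or cross gave 1 to 3 (without the library 3, with 459 genes in all). At an FDR of at most 0.01, the count for cMO at stage 26 was 1 (47 of 17979 genes in all). For the stages it was 1 in uninjected (4702 genes in all) and 0 in wild-type embryos (1599 genes in all). Without a minimum change it was 5 for cMO (717 of 17979 genes in all), 7 for *t*/*t2* MO against control morphants (7065 genes), 7 for *t*/*t2* MO at stage 26 (4153 genes) and 5 for the stages in uninjected embryos (10113 genes, a share near that of the 9 genes). Leaving out a frog gave 1 to 2 for cMO over both stages (without frog F, 1, with 195 genes in all). It gave 1 to 3 for cMO at stage 26 (1 without frog E or F, with 59 and 103 genes in all). For the stages in uninjected embryos it gave 1 to 2 (without frog E, 1, with 5208 genes in all). Leaving out a cross gave 0 to 1 for the stages in wild-type embryos (without cross 1, 0, with 2178 genes in all). The replicate block also called *sesn1* with cMO at stage 26 (0.60), and it changed no other call. The difference of *gadd45a* between morphants and KO embryos was called with DESeq2 and with relative log expression size factors (0.59 each), and when low genes were removed before the fit. The fold of *sesn1* in KO embryos lies at the minimum change, and the causes of the other changes were not tested. With 3 clutches per group, intervals of *ccng1* and *tp53inp1* in the KO experiment are wide.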

Other observations

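The genes most like *mdm2*, *ccng1* and *tp53inp1* across the 36 libraries were listed by Pearson's r of log2 CPM (counts scaled to library size) after subtraction of the mean of each stage within each experiment. The libraries share clutches and conditions, so that r is given as a description. The 14759 genes with a mean of at least 50 normalized counts were compared, and those without a symbol were then left out. *ccng1* was most like *eda2r* (r = 0.976), followed by the complement receptor *c3ar1* (0.945), *polk* (0.943), *ankle1* (0.936) and the autophagy kinase *ulk1* (0.932). *mdm2* was most like *ankle1* (r = 0.943), followed by the kinase inhibitor *cdkn2b* (0.929), *dscaml1* (0.929), *cpxm2* (0.927) and *polk* (0.926). For *tp53inp1* these were *ankle1* (r = 0.964), *riok3* (0.956), *parp3* (0.945), *mst1r* (0.945) and *cpxm2* (0.943).

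Among the 9 genes, the highest values of r on the same scale joined *mdm2* with *tp53inp1* (0.921), *mdm2* with *ccng1* (0.905) and *ccng1* with *tp53inp1* (0.884). *cdkn1a* was near *mdm2* (0.816) and *sesn1* (0.787), and *gadd45a* was nearest to *cdkn1a* (0.706). *btg2*, *zmat3* and *rrm2b* ranged from -0.379 to 0.410 with the other genes. In the deposited annotation, the term cell cycle arrest was assigned to *sesn1*, *gadd45a* and *tp53inp1* (165 genes in all), DNA repair to *gadd45a*, *btg2* and *rrm2b* (203 genes), and regulation of cyclin-dependent protein kinase activity to *cdkn1a*, *ccng1* and *gadd45a* (58 genes).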
